A study of Homo sapiens with 6 samples.

Results

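The genes described here are 42 genes that carry cells through mitosis: the mitotic cyclins with CDK1 and its CDC25 activators, the mitotic kinases, the spindle assembly checkpoint, the genes that promote anaphase, centromere and kinetochore proteins, spindle motors, cytokinesis genes, and TOP2A with MKI67. They were chosen by name from the 46427 genes of a count table, and all 42 were found and passed the filter on low counts. RNA-seq had been done on Hs578T, an established cell line from a breast carcinoma of the triple-negative kind, to follow what loss of CCN3, a secreted matricellular protein, does to the transcriptome. Cells had been transduced with a retroviral pSUPER vector that carries either a control shRNA (shCTRL, 3 libraries) or a single shRNA against CCN3 (CCN3 shRNA #2, shCCN3, 3 libraries), and both groups had been selected with puromycin and grown in DMEM with serum. The knockdown arm rests on 1 shRNA, so an effect of the loss of CCN3 and an effect of that shRNA or of the selected cell population cannot be told apart.

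Entry into mitosis is driven by CDK1 bound to cyclin A or cyclin B, which CDC25 phosphatases switch on and WEE1 holds back. The kinetochores then capture microtubules, the checkpoint proteins hold back the anaphase-promoting complex until each chromosome is attached, and CDC20 and UBE2C let this complex mark securin and cyclin B for destruction. Transcripts of most of these genes build up in G2 and M phase under the DREAM complex, B-MYB and FOXM1, and they are therefore widely read as a proliferation signature in breast tumors. In bulk RNA, fewer cells in G2 and M phase and less mRNA per cell cannot be told apart.

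The promoters of the 4 genes that fell and of TOP2A, which rose most, and those of CCNB1 and PLK1 as reference genes of the mitotic program, are shown because 2 short elements are known to be shared by this program. They are the cell cycle genes homology region, searched here as TTTGAA or TTCGAA, and the CCAAT box that binds NF-Y, searched as CCAAT. Both were searched on both strands (TTCAAA and ATTGG on the other strand; TTCGAA reads the same on both), and a CCAAT box can share at most 1 end letter with the other motif. Each line gives the 200 bases before a RefSeq start site of GRCh38.p14, 5′ to 3′ on the strand of the gene, with motif matches in capitals. For CDC25B, which had several start sites, the window with the most matches is given. The stretches are chr20:3796110-3796309 (plus strand) for CDC25B, chr19:11155783-11155982 (minus) for SPC24, chr1:43358781-43358980 (plus) for CDC20, chr1:44739637-44739836 (plus) for KIF2C, chr17:40417897-40418096 (minus) for TOP2A, chr5:69166950-69167149 (plus) for CCNB1 and chr16:23678689-23678888 (plus) for PLK1.
CDC25B: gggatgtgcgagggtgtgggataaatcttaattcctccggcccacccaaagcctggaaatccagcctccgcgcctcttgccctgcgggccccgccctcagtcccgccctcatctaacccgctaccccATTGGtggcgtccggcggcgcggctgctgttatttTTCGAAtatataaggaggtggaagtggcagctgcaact
SPC24: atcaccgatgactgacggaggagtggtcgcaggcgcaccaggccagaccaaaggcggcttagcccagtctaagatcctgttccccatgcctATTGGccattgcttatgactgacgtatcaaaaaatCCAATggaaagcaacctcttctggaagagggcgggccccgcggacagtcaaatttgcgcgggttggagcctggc
CDC20: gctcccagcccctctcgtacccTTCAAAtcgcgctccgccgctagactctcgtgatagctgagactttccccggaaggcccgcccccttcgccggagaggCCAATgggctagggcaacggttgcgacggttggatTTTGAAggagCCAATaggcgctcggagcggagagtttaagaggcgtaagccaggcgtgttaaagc
KIF2C: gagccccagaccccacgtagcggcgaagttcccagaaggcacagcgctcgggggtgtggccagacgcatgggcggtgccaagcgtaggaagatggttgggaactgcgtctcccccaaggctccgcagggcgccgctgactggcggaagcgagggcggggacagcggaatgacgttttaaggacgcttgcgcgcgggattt
TOP2A: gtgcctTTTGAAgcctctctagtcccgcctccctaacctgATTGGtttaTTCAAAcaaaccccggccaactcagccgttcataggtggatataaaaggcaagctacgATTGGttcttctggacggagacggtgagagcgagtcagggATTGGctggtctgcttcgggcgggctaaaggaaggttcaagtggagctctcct
CCNB1: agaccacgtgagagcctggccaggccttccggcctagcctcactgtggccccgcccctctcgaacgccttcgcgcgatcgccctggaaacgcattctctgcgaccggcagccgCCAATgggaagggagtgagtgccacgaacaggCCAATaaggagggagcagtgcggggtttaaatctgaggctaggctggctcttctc
PLK1: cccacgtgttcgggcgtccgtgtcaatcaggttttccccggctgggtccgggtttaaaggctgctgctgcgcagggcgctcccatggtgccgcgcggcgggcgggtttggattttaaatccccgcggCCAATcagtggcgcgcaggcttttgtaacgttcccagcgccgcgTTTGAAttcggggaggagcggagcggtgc

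Promoter windows, from 250 bases before a start site to 50 bases from it, were matched for 36 of the 42 genes, with 46 windows in all. AURKA, TPX2, BIRC5, TTK, BUB3 and UBE2C had no entry. TTTGAA or TTCGAA was found in 31 of the 46 windows (67.4%) and in 16.4% of all 35116 windows of the RefSeq table. CCAAT was found in 76.1% of the mitotic windows and in 34.6% of all windows, and both motifs were found together in 56.5% and in 6.38%. Within the 50 bases before the start, a stretch chosen after the positions were seen, TTTGAA or TTCGAA was found in 37.0% of the mitotic windows and in 2.73% of all. The median log2 fold change in shCCN3 over shCTRL cells was 0.09 over the 28 genes with TTTGAA or TTCGAA in any of their windows (2 higher and 2 lower past the test) and -0.02 over the 8 genes without it (2 higher and 2 lower). It was 0.09 over the 30 genes with CCAAT (4 higher and 3 lower) and -0.03 over the 6 genes without it (0 higher and 1 lower). These differences between genes with and without a motif were not tested. CDC20, with both motifs, and KIF2C, with neither in its window, both fell. They both lie on chromosome 1, where the 24 tested genes nearest to each had median log2 fold changes of -0.27 and -0.31. The part of the motifs in these falls was not tested. These matches describe letters in a window and not sites shown to be used.

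CCN3 mRNA was 103, 102 and 98.1 CPM (counts scaled to the library total after TMM normalization) in the shCTRL libraries and 47.4, 47.2 and 46.5 CPM in the shCCN3 libraries. It was thus lower in each shCCN3 library than in each shCTRL library, with a log2 fold change of -1.10 (SE 0.055, adjusted p = 1.34e-06). An exact permutation test of these 6 values gave p = 0.1 (two-sided), the smallest that 3 against 3 libraries can give. The libraries held between 56159110 and 68393177 counts, and each of the 42 genes had between 2331 and 39353 counts in each library. The labelled cell type was checked against its markers: VIM was among the abundant mRNAs (6619 to 7992 CPM over the libraries), EPCAM, CDH1 and ESR1 were at or below 0.156 CPM, and ERBB2 was 77.9 ± 5.49 CPM in shCTRL cells (SD, n = 3). Of the leukocyte markers, CD3E was at 0 in all libraries, and their summed level was 0.422 to 0.828 CPM in shCTRL and 0.468 to 0.812 CPM in shCCN3 libraries. The summed level of 8 luminal epithelial markers was 249 to 279 CPM in shCTRL and 309 to 359 CPM in shCCN3 libraries, of which KRT18 gave 156 to 171 and 212 to 263 CPM. Other markers of the list went in both directions. KRT8 fell (log2 fold change -0.52, adjusted p = 0.00221), and ERBB2 had a log2 fold change of 0.01. GATA3 (-0.66, adjusted p = 0.0607) and PGR (0.41, adjusted p = 0.0799) did not pass the test. Of the mesenchymal markers, CDH2 rose from 89.0 to 162 CPM (log2 fold change 0.87, adjusted p = 9.06e-05). VIM (-0.14), FN1 (0.18) and ZEB1 (0.09) did not pass the test. The part of the summed luminal level in the changes of the mitotic genes was not tested.

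A pair of libraries stood apart from the others in these genes, shCTRL replicate 3 and shCCN3 replicate 2, in both of which long transcripts were low. Over the 21 genes with an exon length of at least 3947 bases, the median deviation from the group mean was -0.07 on the log2 scale in shCTRL replicate 3 and -0.14 in shCCN3 replicate 2, while it was between 0.02 and 0.07 in the other 4 libraries. The correlation of the deviation with log2 exon length across the 42 genes was -0.65 and -0.69 in these libraries and between 0.47 and 0.71 in the others, which is a description across genes that share a library. Other genes showed the same directions. Among all genes at least as abundant as the lowest of the 42, the median deviation was taken above this exon length. It was -0.02 in shCTRL replicate 3 and -0.05 in shCCN3 replicate 2, and between 0.01 and 0.03 in the other 4 libraries. For shorter exons it was 0.06 and 0.11, and -0.08 to -0.01 in the other 4. Across the 42 genes, the deviation also correlated with GC content, at 0.55 in shCTRL replicate 3 and 0.43 in shCCN3 replicate 2. In shCTRL replicates 1 and 2 this correlation was -0.70 and 0.11, and in shCCN3 replicates 1 and 3 it was -0.15 and -0.53. The log2 fold changes of the 42 genes correlated at -0.41 with GC content and at 0.10 with log2 exon length. The part of either was not tested. The shCTRL replicate 3 and shCCN3 replicate 2 libraries lie in different groups, and both were kept. Counts of changed genes are also given without them.

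The mitotic genes as a group moved little after CCN3 knockdown. Their summed level averaged 7751 ± 104 CPM under shCTRL and 7973 ± 178 CPM under shCCN3 (SD over 3 libraries per group), with 7647, 7751 and 7854 CPM in the shCTRL libraries against 7767, 8070 and 8080 CPM in the shCCN3 libraries, so that the groups overlapped. A total of 7 genes rose (TOP2A, BUB3, CCNA2, TPX2, MAD2L1, CCNB1 and AURKA), 4 fell (CDC25B, SPC24, KIF2C and CDC20) and 31 did not pass the test (edgeR's quasi-likelihood test, adjusted p under 0.05). The 11 called genes are 26.2% of the 42, against 33.4% of all 17419 genes tested, of which 16.2% were higher and 17.3% lower in shCCN3 cells. Among the 5310 genes at least as abundant as the lowest of the 42, 38.5% were called, 18.2% higher and 20.3% lower. The share of called mitotic genes thus did not exceed the background.

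The sizes were small as well. None of the 42 genes changed by 2-fold, against 9.69% of all genes tested, or 8.1% with an adjusted p under 0.05 as well, and CDC25B alone had a 95% confidence interval that reached beyond 1.5-fold in either direction. The median log2 fold change was 0.10 over the 42 genes, with an interquartile range of 0.03 to 0.16, and 0.01 over all genes tested, with an interquartile range of -0.25 to 0.23. Over the 5310 genes at least as abundant as the lowest of the 42, the median was 0.003 and the interquartile range was -0.17 to 0.15. Of the 42 genes, 32 had a positive and 10 a negative log2 fold change, a skew that was not tested. Of the 31 genes that did not pass the test, 25 had a positive and 6 a negative log2 fold change, between -0.14 and 0.17. All 31 had a 95% confidence interval within 1.5-fold. The groups did not overlap for 16 of the 42 genes, 11 of them higher and 5 lower in shCCN3 cells, against 46.3% of all genes tested, 22.7% higher and 23.6% lower. They are the 11 called genes together with NDC80, CENPA, KIF20A and PRC1 on the higher side and HMMR on the lower side.

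**Figure D1:**
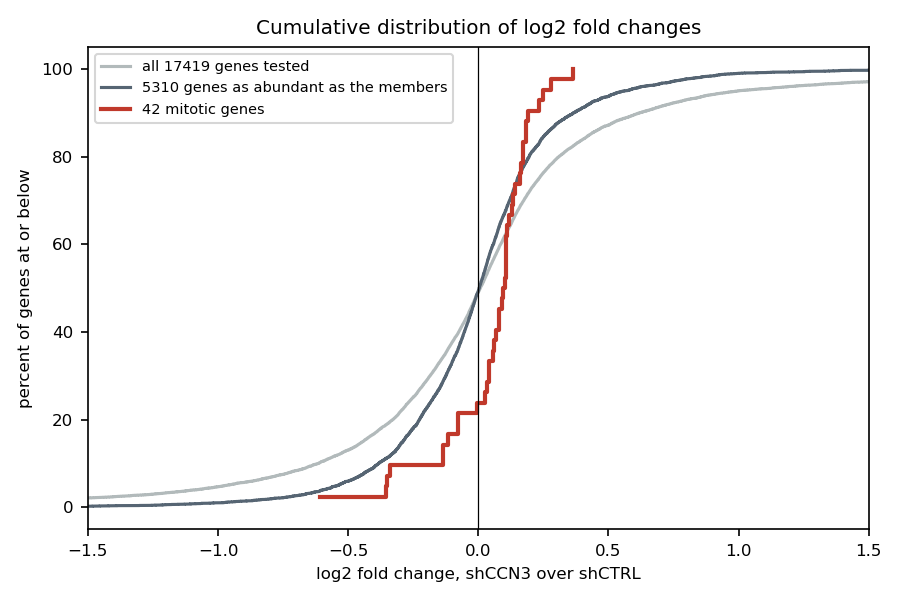
Cumulative share of genes (y axis, percent) at or below a log2 fold change of shCCN3 over shCTRL cells (x axis, shown from -1.5 to 1.5) for all 17419 genes tested, the 5310 genes at least as abundant as the lowest mitotic gene, and the 42 mitotic genes. The curve of the mitotic genes is steep just right of 0, with a median of 0.10 and 4 genes below -0.3.

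The number of called genes depended on single libraries. It was 21 without shCCN3 replicate 2 (16 higher and 5 lower), 50% of the 42 against 40.5% of all genes in that fit. It was 8, 4, 5, 5 and 6 without shCTRL replicate 1, shCTRL replicate 2, shCTRL replicate 3, shCCN3 replicate 1 and shCCN3 replicate 3, or 9.52% to 19% of the 42 against 23.4% to 27% of all genes. Without both libraries in which long transcripts were low, an alternative chosen after the data were seen, 20 of the 42 genes were called (15 higher and 5 lower, 47.6%), against 41.9% of all genes in the same fit. The log2 fold changes were then -0.58 for CDC25B, -0.37 for CDC20, -0.38 for KIF2C and 0.25 for BUB3. CDC25B, KIF2C, CDC20 and BUB3 were called under each of 15 alternative settings and in the same direction. The calls of CCNA2, CCNB1, AURKA, TPX2, MAD2L1, SPC24 and TOP2A were each lost in 2 or more of the fits that left out 1 library.

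Among the cyclins and the genes that switch CDK1 on, 2 of 6 rose and 1 fell. CDC25B, a phosphatase that activates CDK1 at entry into mitosis, was 478, 490 and 511 CPM in shCTRL libraries and 327, 322 and 322 CPM in shCCN3 libraries. The groups lay far apart, the expression fell by 34.4%, and the log2 fold change of -0.61 (SE 0.054, adjusted p = 3.53e-05) was the largest in size among the 42 genes. CCNA2, which encodes cyclin A2, was 121, 116 and 111 CPM in shCTRL and 141, 130 and 143 CPM in shCCN3 libraries, a log2 fold change of 0.25 (SE 0.064, adjusted p = 0.0149). Its groups did not overlap, and the gap between the nearest libraries was smaller than the range within either group. CCNA2 overlaps EXOSC9 on the opposite strand, which had 28.1% of its counts. CCNB1, the main cyclin partner of CDK1 in mitosis, was 270, 257 and 272 CPM in shCTRL and 296, 313 and 298 CPM in shCCN3 libraries (log2 fold change 0.18, SE 0.056, adjusted p = 0.0307). CDK1 itself was 155, 143 and 140 CPM in shCTRL and 153, 157 and 162 CPM in shCCN3 libraries. The groups of CDK1 overlapped, and its log2 fold change of 0.11 (95% confidence interval -0.03 to 0.24) did not pass the test. CCNB2, the second B-type cyclin, and CDC25C, the other mitotic CDC25 phosphatase of the list, had log2 fold changes of 0.08 and 0.14 that did not pass either.

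Of the mitotic kinases and the chromosomal passenger genes, 2 of 6 rose, none fell, and all 6 had a positive log2 fold change. The pair that rose works together, since TPX2 is known to bind Aurora A on the spindle and to activate it. TPX2 was 478, 474 and 466 CPM in shCTRL and 571, 527 and 570 CPM in shCCN3 libraries (log2 fold change 0.23, SE 0.056, adjusted p = 0.0104). AURKA, which encodes Aurora A, was 208, 204 and 206 CPM in shCTRL and 239, 237 and 225 CPM in shCCN3 libraries (log2 fold change 0.18, SE 0.054, adjusted p = 0.0281). Both genes showed tight shCTRL values and no overlap between groups. PLK1, a kinase needed from mitotic entry to cytokinesis, was 258, 274 and 264 CPM in shCTRL and 302, 285 and 268 CPM in shCCN3 libraries. AURKB, the kinase of the passenger complex, was 96.4, 106 and 110 CPM in shCTRL and 104, 121 and 96.1 CPM in shCCN3 libraries. In both genes the groups overlapped, and the log2 fold changes of 0.10 (95% confidence interval -0.04 to 0.25) and 0.04 (-0.16 to 0.25) did not pass the test. The partners of Aurora B in that complex, survivin (BIRC5, 0.11) and INCENP (0.03), did not pass it either.

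Within the spindle assembly checkpoint, 2 of 5 genes rose and none fell. BUB3, which brings the BUB1 and BUBR1 proteins to kinetochores, was 212, 206 and 208 CPM in shCTRL and 239, 265 and 258 CPM in shCCN3 libraries. No shCCN3 library of BUB3 came near the shCTRL range, and its log2 fold change was 0.28 (SE 0.059, adjusted p = 0.00557). MAD2L1, whose protein MAD2 holds CDC20 inactive, was 70.1, 69.0 and 70.0 CPM in shCTRL and 77.0, 80.8 and 81.0 CPM in shCCN3 libraries (log2 fold change 0.19, SE 0.055, adjusted p = 0.0257). The 3 checkpoint kinases or pseudokinases of the list, TTK, BUB1 and BUB1B, had log2 fold changes of 0.13, 0.06 and 0.09 and did not pass the test.

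Of the 4 genes that promote anaphase, CDC20 fell and the others did not pass the test. CDC20, the activator of the anaphase-promoting complex and the protein that MAD2 restrains, was 444, 458 and 484 CPM in shCTRL and 361, 397 and 340 CPM in shCCN3 libraries. All shCCN3 values lay below all shCTRL values, the expression fell by 20.9%, and the log2 fold change was -0.34 (SE 0.070, adjusted p = 0.00529). CDC20 was also the most abundant of the 42 genes per kilobase of exon in shCTRL cells, at 227 CPM per kilobase, followed by securin (PTTG1) at 161 and UBE2C at 137, and separase (ESPL1) was the lowest at 7.62. UBE2C, the ubiquitin-conjugating enzyme of the anaphase-promoting complex, had a log2 fold change of 0.11 (95% confidence interval -0.06 to 0.28). Securin and separase, the inhibitor and the protease that cuts cohesin, both had a log2 fold change of -0.08. Reads counted on UBE2CP5, a pseudogene of UBE2C, came to 1.73% of those on UBE2C, and the reads on the near copies of PTTG1 were fewer still.

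Of 7 centromere and kinetochore genes, SPC24 fell and 6 did not pass the test. SPC24, a subunit of the NDC80 complex that attaches microtubules, was 68.7, 70.8 and 81.0 CPM in shCTRL and 54.0, 65.4 and 53.0 CPM in shCCN3 libraries. Its groups did not overlap, although the highest shCCN3 library lay close to the lowest shCTRL library, and the log2 fold change was -0.36 (SE 0.097, adjusted p = 0.0200). Of the 42 genes, 13 including SPC24 overlap another counted gene, and whether counting used the strand was not given in the sources used here. The other subunits of this complex had log2 fold changes of 0.10 (NDC80), -0.12 (NUF2) and 0.12 (SPC25), so that SPC24 alone among the 4 subunits passed the test. The difference between subunits was not tested. CENPA, the histone H3 variant that marks the centromere, had 0.16 (adjusted p = 0.0557), and it overlaps SLC35F6 on the same strand, which had 142% of its counts. CENPE, a kinetochore motor, and CENPF, a large kinetochore protein, had -0.14 and 0.11.

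Among the spindle motors and microtubule binders, KIF2C fell and 5 of 6 genes did not pass the test. KIF2C, which encodes MCAK, a kinesin that takes microtubules apart at their ends and corrects wrong attachments, was 237, 247 and 244 CPM in shCTRL and 184, 197 and 188 CPM in shCCN3 libraries. The values were tight within each group and far apart between groups, the expression fell by 21.7%, and the log2 fold change was -0.35 (SE 0.055, adjusted p = 0.0011). KIF11, the motor that pushes spindle poles apart, was the gene nearest to no change, averaging 152 ± 4.90 CPM under shCTRL and 152 ± 9.94 CPM under shCCN3 (SD over 3 libraries per group), with a 95% confidence interval of -0.15 to 0.14. NUSAP1, DLGAP5 and ASPM, which bind and stabilize spindle microtubules or organize the poles, had log2 fold changes of 0.10, 0.07 and 0.04. HMMR, a spindle protein that works with TPX2, was 82.1, 78.3 and 74.6 CPM in shCTRL and 71.9, 67.9 and 74.3 CPM in shCCN3 libraries, a log2 fold change of -0.13 that did not pass the test (adjusted p = 0.143).

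None of the 6 central spindle and cytokinesis genes passed the test, and all 6 had a positive log2 fold change. PRC1, which bundles the microtubules of the central spindle, and KIF20A, a motor of the same structure, had log2 fold changes of 0.17 (adjusted p = 0.0536) and 0.16 (adjusted p = 0.0733), and their groups did not overlap. KIF23 and KIF4A, motors that act at the midzone, had 0.13 and 0.03. ECT2, the exchange factor that starts the contractile ring, and ANLN, its anillin scaffold, were the genes that varied most within groups. ECT2 was 202, 176 and 161 CPM in shCTRL and 201, 172 and 235 CPM in shCCN3 libraries, and ANLN was 272, 253 and 213 CPM in shCTRL and 277, 200 and 290 CPM in shCCN3 libraries. The lowest library of each group was the one in which long transcripts were low, in both genes, with exon lengths of 5499 bases for ECT2 and 6012 bases for ANLN.

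Of the genes for chromosome structure, TOP2A rose and MKI67 did not pass the test. TOP2A, the topoisomerase that untangles sister chromatids and the target of several breast cancer drugs, was 310, 294 and 265 CPM in shCTRL and 386, 325 and 410 CPM in shCCN3 libraries. The groups did not overlap, shCCN3 replicate 2 being the library nearest to the shCTRL range, and the log2 fold change of 0.37 (SE 0.093, adjusted p = 0.0147) was the largest rise among the 42 genes. It stayed between 0.26 and 0.46 over all alternative settings. MKI67, whose protein Ki-67 coats mitotic chromosomes and serves as the clinical marker of proliferation, was 462, 457 and 428 CPM in shCTRL and 495, 422 and 506 CPM in shCCN3 libraries. The groups of MKI67 overlapped, with a log2 fold change of 0.08 (95% confidence interval -0.10 to 0.25, adjusted p = 0.478).

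**Figure D2:**
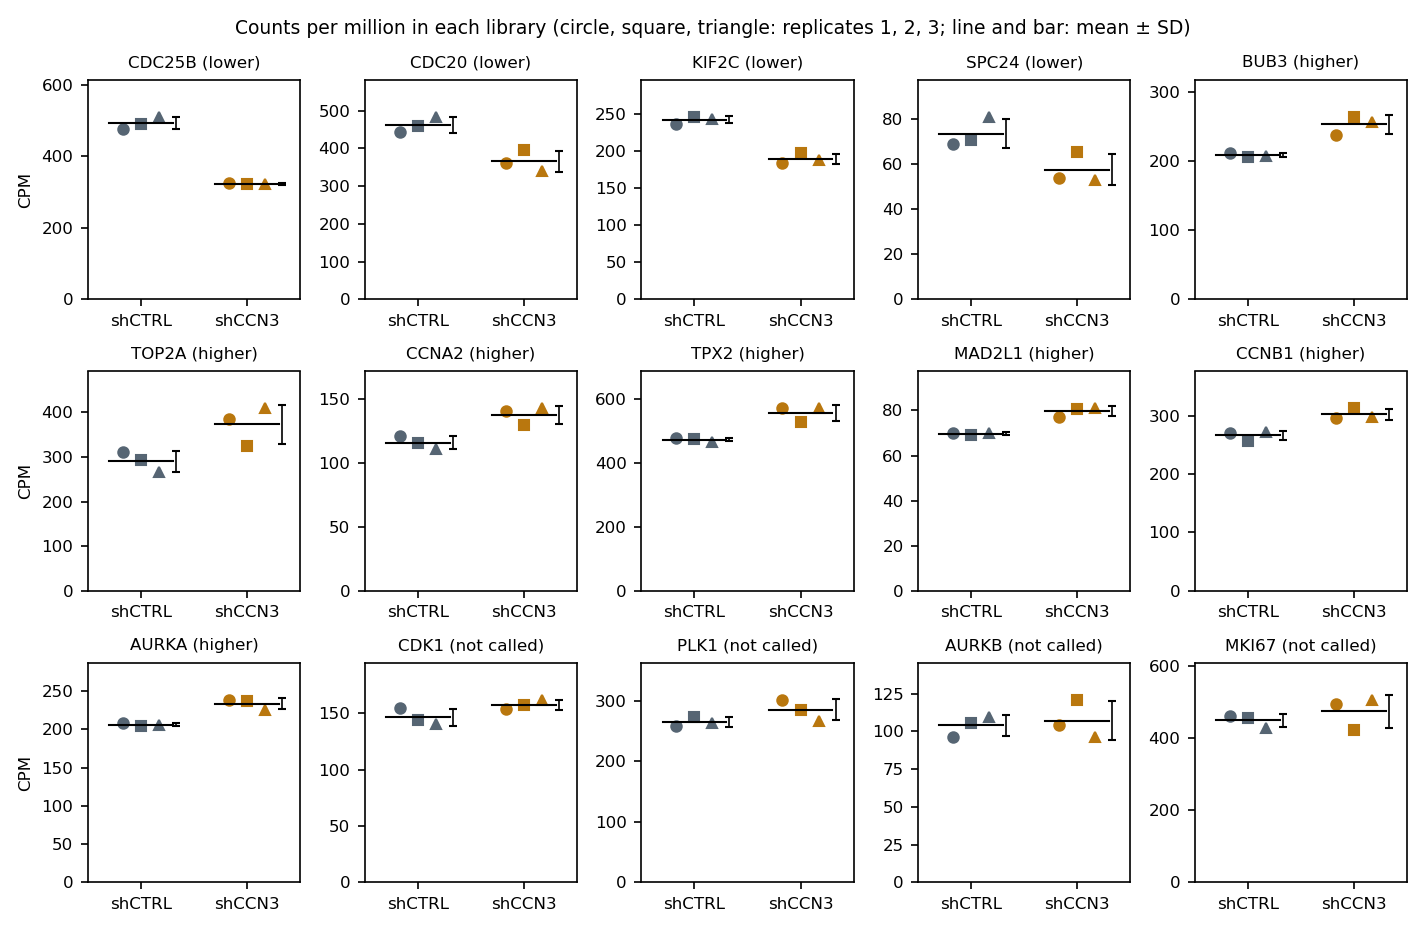
CPM (y axis, from 0) in each shCTRL and shCCN3 library for the 11 called genes and for CDK1, PLK1, AURKB and MKI67, with the mean as a line and the SD as a bar (n = 3). CDC25B, CDC20 and KIF2C show the widest gaps below the shCTRL values, and the groups of CDK1, PLK1, AURKB and MKI67 overlap.

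The position of the genes on the chromosomes was then compared with their changes, a comparison chosen after the data were seen. For each gene, the median log2 fold change of its 24 nearest tested genes on the chromosome was taken. CDC25B lies on chromosome 20, and the 24 genes around it, from 3107573 to 5010313 on GRCh38, had a median of -0.62. All 24 had a negative log2 fold change and 19 were called lower, so that CDC25B at -0.61 stood in the middle of its neighbours, 13 of which were lower still. Of all genes with a position, 0.356% had a neighbour median this low or lower. The median over all tested genes of a chromosome was -0.12 for chromosome 20 and -0.13 for chromosome 1. CDC20 and KIF2C both lie on chromosome 1, with separate sets of neighbours. Around CDC20 (42746374 to 43946599) the median was -0.27, with 19 of 24 genes negative and 7 called lower, and around KIF2C (43979210 to 45011324) it was -0.31, with 22 of 24 negative and 11 called lower. Of all genes with a position, 8.67% had a neighbour median as low as that of CDC20 or lower, and 6.57% one as low as that of KIF2C. With 1 library left out, the neighbour median lay between -0.31 and -0.20 for CDC20 and between -0.40 and -0.27 for KIF2C. It lay between -0.63 and -0.58 for CDC25B. CDC20 and KIF2C differed from their neighbours' medians by -0.06 and -0.04, and 11 of 24 neighbours were lower than each. The part of the neighbourhood in these falls was not tested.

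The neighbour medians of the remaining called genes were smaller in size than those of CDC25B, CDC20 and KIF2C. Around SPC24 the median was -0.04, and 2 of its 24 neighbours were lower than it. The 7 genes that rose had neighbour medians between -0.01 (TOP2A) and 0.17 (CCNA2), with 0.07 for BUB3 and 0.03 for TPX2. TOP2A stood 0.38 above its neighbours. CCNA2 stood 0.08 above its own, of which 4 were called higher and 0 lower. CCNA2 and MAD2L1 are among each other's 24 neighbours on chromosome 4. ANLN showed the opposite pattern to CDC25B, since its neighbours on chromosome 7 had a median of -0.32 with 12 called lower, while ANLN had a log2 fold change of 0.06. The 821 tested genes of chromosome 7 had a median of -0.43, so the low level was not limited to the neighbours of ANLN. Across the 42 genes, Pearson's r between the log2 fold change and the neighbour median was 0.60. It was 0.39 without CDC25B and 0.06 without CDC25B, CDC20 and KIF2C. Across all genes with a position it was 0.24, and across those at least as abundant as the lowest of the 42 it was 0.48. These are descriptions across genes, which share libraries and are not independent replicates.

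**Figure D3:**
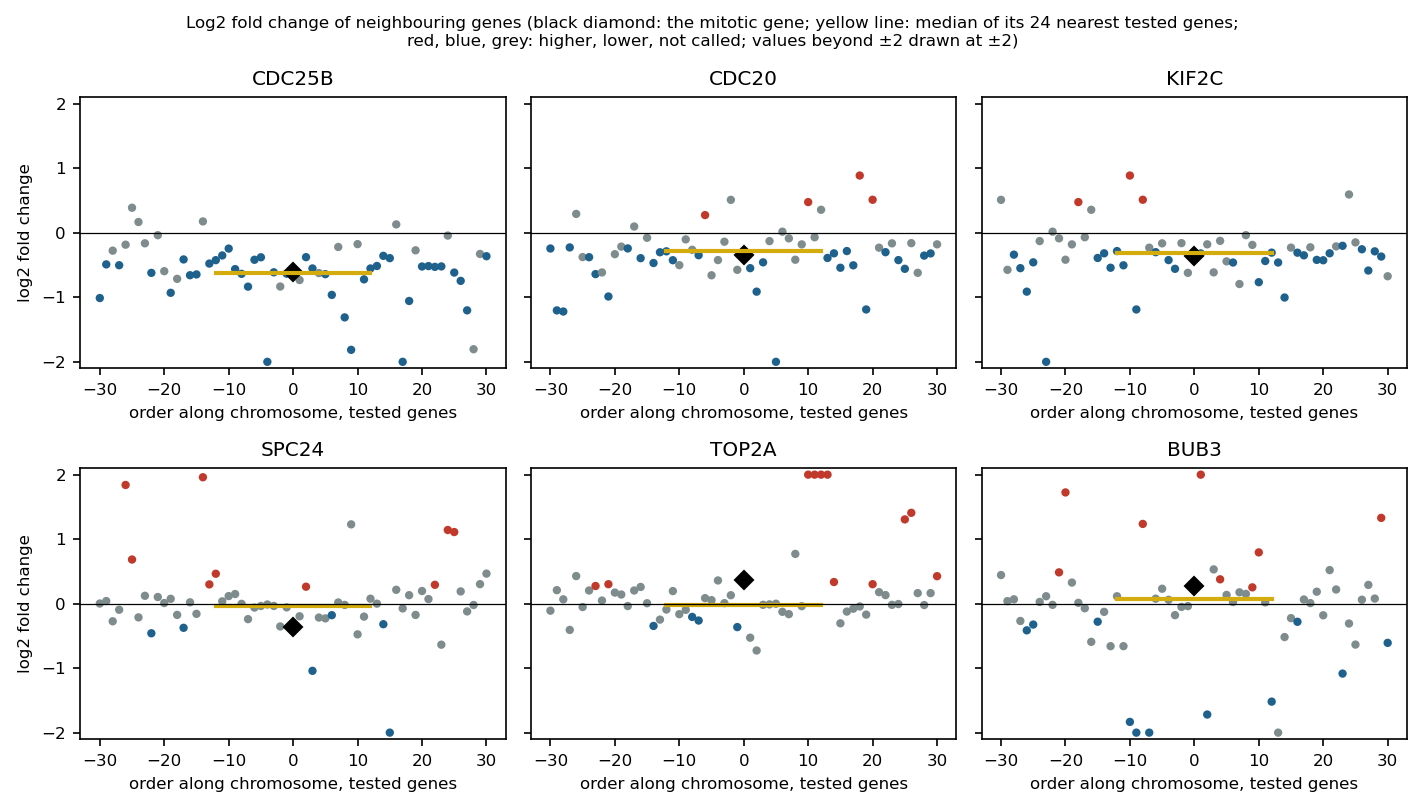
Log2 fold change (y axis, values beyond 2 drawn at the edge) of the tested genes up to 30 places to either side of 6 mitotic genes along the chromosome (x axis, gene order). The yellow line is the median of the 24 nearest genes, at -0.62 around CDC25B, -0.27 around CDC20 and -0.31 around KIF2C, where the mitotic gene (black diamond) lies close to it, while SPC24, TOP2A and BUB3 lie away from lines near 0.

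In 67 other mitotic genes, fixed as a list of kinetochore, spindle and mitotic regulator genes, 11 rose, 10 fell and 46 did not pass the test. The called genes are 31.3% of this list, against 33.4% of all genes tested. The median log2 fold change was 0.03. CENPN, a centromere protein that reads CENPA nucleosomes, rose from 70.8 ± 2.34 to 116 ± 3.0 CPM (SD, n = 3 each; log2 fold change 0.71, SE 0.057, adjusted p = 2.06e-05), and its neighbours on chromosome 16 had a median of 0.64. KIFC1, a motor that clusters centrosomes, rose with a log2 fold change of 0.42 (neighbours 0.25). MAD1L1, the checkpoint protein that carries MAD2 to kinetochores, fell by 0.65 on the log2 scale (SE 0.104, adjusted p = 0.00122). Its neighbours on chromosome 7 had a median of -0.52, and all tested genes of this chromosome had one of -0.43. PBK, a mitotic kinase, fell by 0.40 (neighbours -0.29). Over the 42 genes and all other lists together, the median log2 fold change of the 28 genes called lower was -0.33 and the median of their neighbour medians was -0.27, while the 2986 genes with a position called lower in the whole table had -0.53 and -0.07. On the higher side these medians were 0.37 and 0.07 for the 41 listed genes, and 0.57 and 0.08 for the 2786 genes of the whole table. On neither side were the listed genes and the whole table matched for abundance.

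Around the CDK1 switch, 1 of 10 genes of a list of CDK1 regulators and CKS proteins passed the test. This is 10% of the list, against 33.4% of all genes tested. In the lists that follow, 12.5% (anaphase-promoting complex) and 16.7% (condensin and cohesin) were called. WEE1, the kinase that inhibits CDK1 and opposes CDC25B, rose from 36.3 ± 1.93 to 50.03 ± 4.77 CPM (SD, n = 3 each; log2 fold change 0.46, SE 0.082, adjusted p = 0.00228), with neighbours at -0.02. CCNF (0.17), MASTL (0.17), the kinase that restrains the phosphatase opposing CDK1, and CKS2 (-0.12), a CDK1-binding protein, did not pass. Of 16 subunits and partners of the anaphase-promoting complex, CDC23 rose (0.26) and ANAPC13 fell (-0.30), and CDC26 (-0.34) and the activator FZR1 (0.18) came next but did not pass the test. CDC23 overlaps KIF20A on the opposite strand. Of 18 condensin and cohesin genes, the cohesin subunits RAD21 (0.50, SE 0.091, adjusted p = 0.00265) and STAG2 (0.47, SE 0.112, adjusted p = 0.0102) rose and the condensin subunit NCAPG2 fell (-0.27), while PDS5A, a cohesin regulator, did not pass (0.26, adjusted p = 0.0642).

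Of 25 cell cycle transcription factors and subunits of their complexes, 7 rose, 3 fell and 15 did not pass the test. The called genes are 40% of this list, against 33.4% of all genes tested. FOXM1, the forkhead factor that drives G2 and M phase genes, averaged 317 ± 4.46 CPM under shCTRL and 309 ± 13.5 CPM under shCCN3 (SD over 3 libraries per group), with a log2 fold change of -0.04 (adjusted p = 0.669). MYBL2, which encodes B-MYB, rose from 324 ± 15.4 to 443 ± 14.9 CPM (log2 fold change 0.45, SE 0.060, adjusted p = 0.000414), and MYBL1 rose by 0.69 on the log2 scale (SE 0.082, adjusted p = 0.000217). RBBP4, a subunit of the DREAM complex, fell by 0.33 (SE 0.052, adjusted p = 0.00117). The neighbour medians were -0.29 for RBBP4 on chromosome 1, -0.05 for MYBL2, 0.32 for MYBL1 and 0.03 for FOXM1. E2F1, which drives entry into S phase, had a log2 fold change of -0.11 and did not pass the test (adjusted p = 0.351).

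Genes that act before mitosis moved in both directions. Of 34 S phase genes, 8 rose, 8 fell and 18 did not pass the test. The called genes are 47.1% of this list, against 33.4% of all genes tested, of which 16.2% were higher and 17.3% lower. CDT1 (0.59) and MCM3 (0.43), which license replication origins, rose, while RFC2 (-0.71) and GINS1 (-0.43), which load the clamp and form part of the replicative helicase, fell. The neighbours of these 4 genes had medians of 0.61, 0.39, -0.73 and -0.46, in the same order. Of 12 genes for G1 cyclins, CDKs and inhibitors, 10 were tested, 4 rose and 1 fell, so that 50% of those tested were called. The 4 were CDKN2B (1.03, SE 0.072, adjusted p = 8.27e-06) and CDKN1A (0.43, SE 0.059, adjusted p = 0.000509), both inhibitors, CDK6 (0.97, SE 0.078, adjusted p = 1.9e-05) and CCND1 (0.24, SE 0.058, adjusted p = 0.0102), its cyclin partner. CDKN2C, an inhibitor of CDK4 and CDK6, fell by 0.33 on the log2 scale. The neighbour medians were -0.24 for CDKN2C on chromosome 1, 0.05 for CDKN2B, 0.46 for CDKN1A, -0.09 for CCND1 and -0.38 for CDK6.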

How the data were processed

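The authors prepared poly(A) libraries with a stranded mRNA kit from total RNA of 3 samples per group, sequenced them and deposited raw counts of reads per gene, by NCBI Gene ID and symbol, without normalization. The submitters' processing notes name bcl2fastq 2.20.0, Trimmomatic, HISAT2 2.1.0, StringTie 2.1.3d, DESeq2 and the build GRCh38. The annotation and the strand setting of the counting are not given in the sources used here. The labels call the 3 samples of a group independent biological replicates.

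From the deposited counts, CPM with TMM factors, log2 fold changes and p-values came from edgeR 4.0.16 under R 4.3.3 (filterByExpr, quasi-likelihood test, 2 groups, no block) and adjusted by Benjamini-Hochberg over the 17419 genes tested. Library totals were 56159110 to 68393177 counts, and 3 counts equal 0.0439 to 0.0534 CPM, which covers counting error only. No 2 libraries of a group agreed within sampling noise (chi-square per degree of freedom 6.75 to 42.5). Gene positions came from RefSeq (44698 of 46427 Gene IDs matched). Exon length and GC content came from the GENCODE annotation (85.7% of tested genes with a length). The scripts were tested on simulated data.

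The mitotic genes and the other lists were chosen with earlier results of these data known. Named with values in each library were the called mitotic genes (up to 8 per direction), CCN3, and CCNB1, CDK1, PLK1, AURKA, AURKB, MKI67, TOP2A and BUB3. From each other list came up to 4 genes with the smallest adjusted p, besides FOXM1, MYBL2, CDKN1A, CCND1, WEE1 and E2F1. The values of some genes under this rule or among the checks are not reported here. HMMR, ECT2 and ANLN (values in each library), KIF11 (means) and the overlapping genes were picked after their values were seen. The alternatives were DESeq2's size factors, upper-quartile normalization, no filter, a minimum of 10 counts per sample, the DESeq2 1.42.0 test, limma-voom (limma 3.58.1), a replicate block, each library left out, both libraries with low long transcripts left out, and an offset for exon length and GC content. The last pair was added after the data were seen.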

Additional observations from a re-analysis of the deposited data

How the results depend on the processing

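The 42 mitotic genes kept the sign of their log2 fold change under both other normalizations, both other filters, DESeq2 and limma-voom, and 37 to 41 of them kept it in the fits that left out libraries or used the offset for exon length and GC content. The number of called mitotic genes lay between 4 and 21 with 1 library left out, the number higher between 1 and 16 and the median log2 fold change between 0.07 and 0.12. The share of all tested genes that was called also moved in the fits with 1 library left out, from 23.4% to 40.5%. Called genes per group ranged in those fits from 1 to 3 for cyclins and CDC25, 0 to 2 for kinases, 1 to 4 for the checkpoint, 1 to 2 for anaphase promotion, 0 to 3 for kinetochores, 0 to 4 for cytokinesis, 0 to 2 for chromosome structure, 13 to 31 for other mitotic genes, 1 to 5 for the CDK1 switch, 0 to 5 for the anaphase-promoting complex, 2 to 7 for condensin and cohesin and 6 to 13 for transcription factors. DESeq2 called 14 mitotic genes (33.3%, against 35.5% of all genes), with 2 for kinetochores, 2 for cytokinesis, 2 for the CDK1 switch and 4 for the anaphase-promoting complex. At least 10 counts in every sample gave 1 called cytokinesis gene, with 35.1% of all genes called. Without both libraries with low long transcripts, 20 were called (47.6%, against 41.9% of all genes) and 15 were higher, with 4 for the checkpoint, 2 for anaphase promotion, 3 for kinetochores, 3 for cytokinesis, 2 for chromosome structure, 5 for the CDK1 switch, 6 for the anaphase-promoting complex and 7 for condensin and cohesin. With the offset for exon length and GC content, 17 were called (40.5%, against 39% of all genes) and 7 were lower, the median was 0.046, MAD2L1 lost its call, and the counts were 1 for the checkpoint, 2 for anaphase promotion, 3 for kinetochores, 2 for spindle motors, 2 for cytokinesis, 4 for the CDK1 switch and 4 for the anaphase-promoting complex. The causes of these moves were not tested. Each mitotic gene had 2331 or more counts in each library, and the part of depth in these moves was not tested.

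The deviations of same-numbered libraries had correlations of 0.09, -0.03 and -0.07, against -0.14 to 0.16 for libraries with different numbers. With deviations from means of 3 libraries, these values cannot decide whether the numbers pair the samples. With the replicate block, 6 mitotic genes were called (14.3%, against 28.1% of all genes) and 2 were higher (BUB3 and TOP2A), with 1 for cyclins and CDC25, 0 for kinases and 1 for the checkpoint.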
